A study of Mus musculus with 8 samples.

Results

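The dystrophin-glycoprotein complex was represented here by 9 listed genes, Dmd, Utrn, Dag1, Sgca, Sgcb, Sgcd, Sntb1, Dtna and Lama2. All 9 were among the 21207 gene symbols named in all 8 count matrices of the study, and all 9 were detected in each of the 8 libraries. They were taken by name, with earlier results of these data known. Single-nucleus RNA sequencing was performed on gastrocnemius, a calf muscle, of C57BL/6 mice that the labels give as WT, in the groups Old, Young, Running and Sedentary with 2 libraries each.

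The Old mice were 20 months and the Young mice 3 months old, and the Running mice started at 11 months and ran on a treadmill for 2 months. The age of the Sedentary mice, which did not run, and the sex of all mice were not stated for these libraries in the sources used here. For stained muscle sections of the same pair of exercise groups the study gives female mice of the same age, that of the Running mice after their exercise. The labels mark 1 library of each group as 10X Genomics. The other library of each group is called the second set here, and the methods describe DNBelab C droplets of MGI beside 10x. The 2 libraries of a group therefore differ in droplet system, and no source used here says that they came from separate animals, so the p-values below measure the spread between these libraries only.

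The complex joins the actin cytoskeleton of a muscle fiber, through the fiber membrane, to the laminin of the basement membrane. Dystrophin binds actin inside the fiber and utrophin is its close relative at synapses and in other cell types. Dystroglycan spans the membrane and binds laminin, the sarcoglycans stabilize it, and syntrophins and dystrobrevins tie signaling proteins to dystrophin. Loss of dystrophin causes Duchenne muscular dystrophy, and loss of single sarcoglycans or of laminin alpha 2 causes other muscular dystrophies.

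The promoter windows of the 3 members whose distribution over nuclear classes is described first are shown for orientation. They are RefSeq sequences (GRCm38.p6) running from 250 bases before to 50 bases after a transcription start. Capitals mark E-boxes (CANNTG, the site of myogenic basic helix-loop-helix factors), a motif that reads the same on both strands. The windows lie at chrX:82948620-82948919 on the plus strand (Dmd), chr10:12861686-12861985 on the minus strand (Utrn) and chr10:27616893-27617192 on the minus strand (Lama2).
Dmd: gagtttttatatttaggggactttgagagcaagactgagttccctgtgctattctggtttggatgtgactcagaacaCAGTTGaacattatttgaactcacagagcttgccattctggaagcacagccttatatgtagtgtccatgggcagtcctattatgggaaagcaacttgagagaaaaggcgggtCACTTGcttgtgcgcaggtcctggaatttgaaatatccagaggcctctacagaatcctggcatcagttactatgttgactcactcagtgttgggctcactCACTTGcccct
Utrn: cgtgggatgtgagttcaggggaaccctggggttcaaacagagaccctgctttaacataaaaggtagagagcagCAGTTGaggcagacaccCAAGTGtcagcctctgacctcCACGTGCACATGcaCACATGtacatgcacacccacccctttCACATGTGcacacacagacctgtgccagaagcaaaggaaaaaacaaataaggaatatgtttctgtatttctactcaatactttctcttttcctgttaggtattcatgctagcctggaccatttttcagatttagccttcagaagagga
Lama2: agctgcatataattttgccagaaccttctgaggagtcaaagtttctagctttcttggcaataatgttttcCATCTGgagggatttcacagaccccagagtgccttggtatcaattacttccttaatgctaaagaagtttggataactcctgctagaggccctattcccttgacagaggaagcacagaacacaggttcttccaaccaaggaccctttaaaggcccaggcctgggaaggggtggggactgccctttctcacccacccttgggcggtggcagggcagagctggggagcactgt
The Dmd window shown held 3 E-boxes, at -173, -61 and 39 from the start, whereas a further Dmd window, at a start inside the gene (chrX:85048045-85048344, plus strand), held 0. The Utrn and Lama2 windows shown, and the window of Sgcd, also lie inside the genes as annotated below. On the minus strand Utrn begins at chr10:12869365 and Lama2 at chr10:27619758. The outermost starts of these genes were not searched. The Lama2 window held 1, at -180. The Utrn window held 7, of which the pair at -98 and -96 overlap and share bases, and the pair at -139 and -133 are adjacent. Of 32851 RefSeq promoter windows of the same length, 72.3% held an E-box, 17.6% held 3 or more and 0.177% held 7 or more. The N-box, a synaptic promoter motif searched as CCGGAA on both strands, was in 14.9% of all windows and in 0 of the 9 windows found for 7 members. A match is only a match of letters. Sntb1 and Dtna had no entry.

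The members differ widely in length. In the GENCODE annotation of GRCm38, Dmd covers chrX:82948870-85206141 (2257.27 kb from first to last exon) and Sgcd covers chr11:46896253-47988969 (1092.72 kb). Lama2 (639.723 kb, chr10:26980036-27619758), Utrn (487.178 kb, chr10:12382188-12869365), Sntb1 (270.562 kb, chr15:55636388-55906949) and Dtna (244.581 kb, chr18:23415135-23659715) follow. Dag1 (59.325 kb, chr9:108204634-108263958), Sgcb (15.042 kb, chr5:73632749-73647790) and Sgca (13.537 kb, chr11:94962791-94976327) are the short members. Nuclear RNA is largely unspliced, and where reads in introns are counted a long gene collects more UMIs (tags that mark single captured RNA molecules) than a short one. Genes of like length are therefore given beside the results.

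In all, 64803 nuclei and 171197251 UMIs were retained. The 10x libraries held 10587 to 12991 nuclei and the second set 4228 to 4772. The 8 general myofiber markers were all detected in every library and summed to 27840 CPM (UMIs per 1000000 UMIs of the library) in the Old library of the second set and to between 50340 and 68910 CPM in the others. In that Old library 77.5% of nuclei fell into clusters led by long genes that could not be named, against 13.5% in the Sedentary and 6.66% in the Running 10x library, and its type IIb-like class held only 57 nuclei. Between 30 and 46 barcodes were shared by each pair of 10x libraries.

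The 9 members took 1.248% of all UMIs in the Old library of the second set and 2.451% in the Sedentary 10x library, and between 1.604% and 1.766% in the other 6. Dmd alone gave 78.91% to 87.19% of the members' UMIs. Its level over all nuclei in the 10x set was 13791 CPM in Old and 13936 in Young, and 13749 and 21368 CPM in Running and Sedentary. In the second set these 4 values were 9875, 13971, 13530 and 13660 CPM. The Sedentary 10x library was thus the highest and the Old library of the second set the lowest, and the other 6 lay between 13530 and 13971 CPM.

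**Figure D1:**
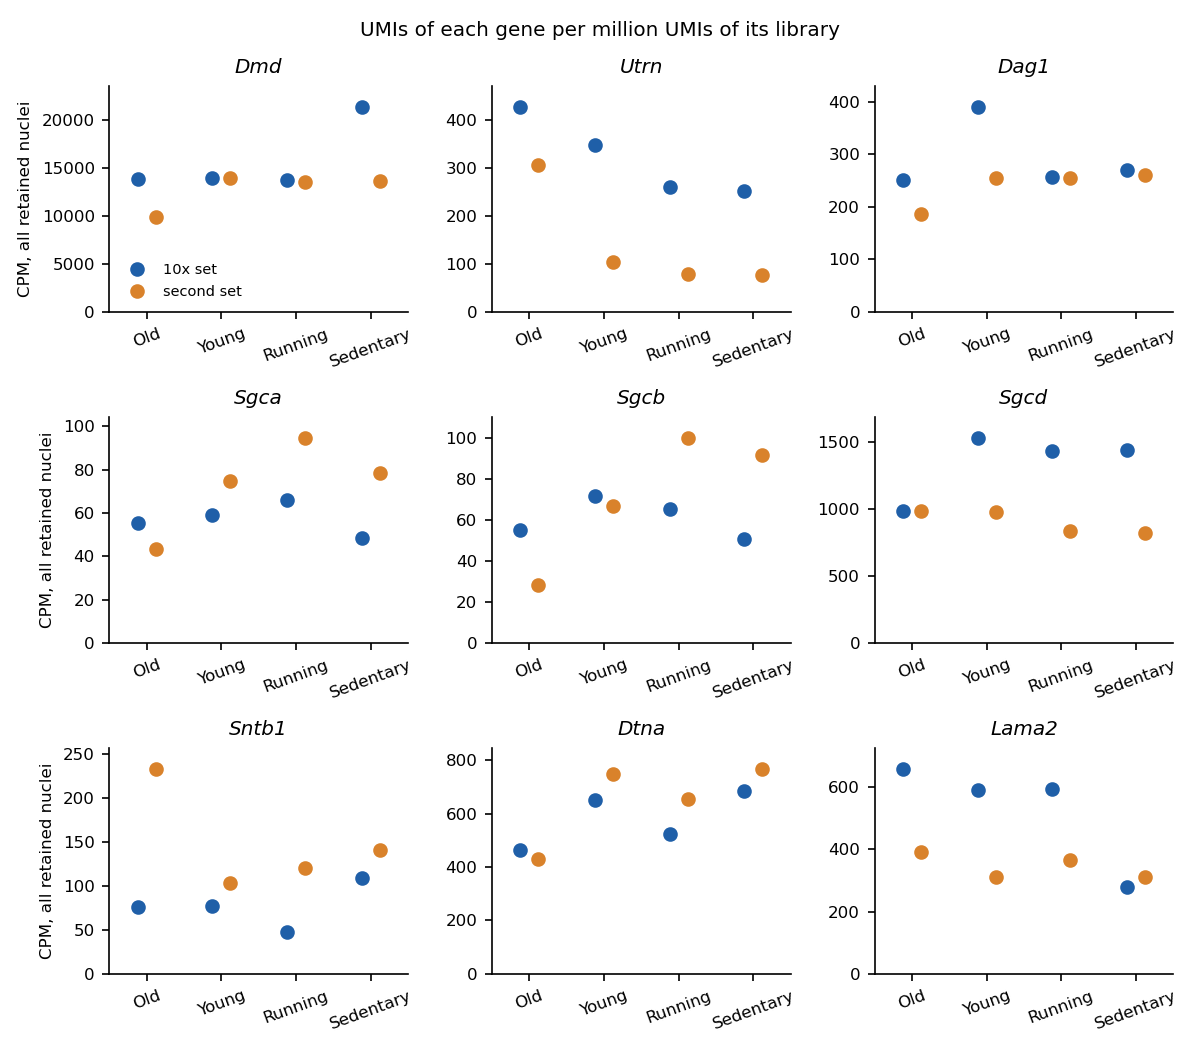
CPM of each of the 9 members over all nuclei of a library (linear axis from 0), by group, with 1 point for the 10x library and 1 for the library of the second set. Dmd stands at 21368 CPM in the Sedentary 10x library and at 9875 CPM in the Old library of the second set, and the other 8 members reach at most 1535 CPM (Sgcd, Young 10x library).

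Compared per kb of gene body, Dmd had the highest level in both sets (mean of 6.96 CPM per kb over the 4 10x libraries and 5.65 over the second set). Dag1 (4.93), Sgca (4.22) and Sgcb (4.04) followed in the 10x set, with overlapping ranges over libraries. Dtna (2.38), Sgcd (1.24), Lama2 (0.830), Utrn (0.662) and Sntb1 (0.286) were lower. The 3 short genes thus sat next to Dmd on this scale, although none of them gave more than 391 CPM in any library.

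Per kb of merged exons instead, Dmd stayed first (660.1 CPM per kb in the 10x set) and Sgcd moved from rank 6 to rank 2 (163.4). Dag1 (46.0), Dtna (34.4), Sgca (32.9), Lama2 (32.5), Utrn (18.9), Sgcb (14.99) and Sntb1 (14.5) came after it. In the second set Utrn, not Sntb1, was the lowest on both scales (0.290 CPM per kb of gene body).

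Nuclei were named by marker genes fixed in lists that contain none of the members, and the members were left out of the genes used for clustering. A name such as type IIb-like means likeness to that class by those markers. The levels by class are given as a description, with no test, as the mean CPM over the 10x libraries that held at least 20 nuclei of a class. The orders are over the 13 named classes that 3 or more 10x libraries held, and unnamed clusters stand outside them.

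Dystrophin (Dmd) was highest in myonuclei. Its mean was 31630 CPM in myotendinous junction-like nuclei (SD 5974, n = 4 libraries), which sit at the fiber ends, 20710 in type IIb-like (SD 4287), 20000 in type IIa/IIx-like (SD 3581) and 15560 in neuromuscular junction-like nuclei (SD 1882), which sit under the synapse. Neighbors in this order overlapped, except that every type IIa/IIx-like value was above every synaptic value. Muscle stem cell-like nuclei followed at 9339 CPM (SD 2063), below every synaptic value, and adipocyte-like nuclei were lowest at 2426 CPM.

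Within each library the contrast between the fiber ends and the fiber body was narrower in range. Dmd in the myotendinous class was 1.45 to 1.73 times its level in the type IIb-like class in the 4 10x libraries and 1.61 to 1.98 times in the second set. In the synaptic class it was 0.665 to 0.845 times in the 10x set and 0.565 to 0.658 times in the 3 second-set libraries with at least 20 such nuclei. For 21 other genes over 1 Mb with at least 50 CPM, the median ratio to type IIb-like nuclei was 1.03 at the myotendinous and 0.868 at the synaptic class, with a 90th percentile of 13.5 and 2.77. The Dmd ratios were below these percentiles.

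Dmd UMIs were also found in classes not known for dystrophin. After every nucleus was thinned to 500 UMIs, 24.8% (Young) to 88.9% (Sedentary) of macrophage-like nuclei in the 10x libraries held a Dmd UMI, against 97.3% to 99.4% of type IIb-like nuclei. Unthinned, these shares were 61.0% to 98.6% and at least 99.3%, at medians of 1068.5 to 2279.0 and 2223.5 to 3671.5 UMIs per nucleus. In the Sedentary library Dmd stood at 11294 CPM in macrophage-like nuclei against 2296 to 4465 in the other 3, and at 8702 CPM in FAP-like (fibro-adipogenic progenitor) nuclei against 2321 to 4044.

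A measure within each library was set beside these levels. The long myofiber genes it uses, unlike the members, were not left out of the clustering. Among them, Ttn, Neb, Trdn, Ryr1, Cacna1s, Xirp2 and Mylk4 were also markers used for naming. Ratios compared between classes are therefore not independent of the naming. Dmd UMIs per UMI of 16 other long myofiber genes were 0.187 (Old), 0.171 (Young), 0.148 (Running) and 0.245 (Sedentary) in type IIb-like nuclei. In FAP-like nuclei they were 0.205, 0.169, 0.171 and 0.266, and in macrophage-like nuclei 0.207, 0.164, 0.146 and 0.345. The other non-muscle classes held by all 4 libraries lay on both sides of the type IIb-like ratio. Adipocyte-like nuclei (0.136 to 0.237) were below it in all 4 libraries, and endothelial-like (0.188 to 0.253) and pericyte-like nuclei (0.154 to 0.354) above it in all 4. Type IIa/IIx-like (0.191 to 0.270), myotendinous (0.241 to 0.411) and muscle stem cell-like nuclei (0.280 to 0.363) were also above it in all 4, and synaptic nuclei (0.128 to 0.218) were below it. The part of RNA from other nuclei in these levels was not tested.

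Utrophin (Utrn) was highest in classes outside the muscle fiber. Its mean was 2003 CPM in lymphatic endothelial-like nuclei (SD 460, n = 3 libraries), 1578 in endothelial-like (SD 260, n = 4) and 1492 in adipocyte-like nuclei (SD 112), which overlapped. Pericyte-like (944), T cell-like (940), FAP-like (920), synaptic (883), tenocyte-like (832), muscle stem cell-like (610) and macrophage-like nuclei (461) followed. Utrn was lowest in myotendinous (69.8 CPM), type IIa/IIx-like (46.2) and type IIb-like nuclei (19.3), a span of 104 times from the highest to the lowest class. Schwann-like nuclei, with 20 or more nuclei in only 2 10x libraries, had 2834 (Old) and 3357 CPM (Sedentary).

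**Figure D2:**
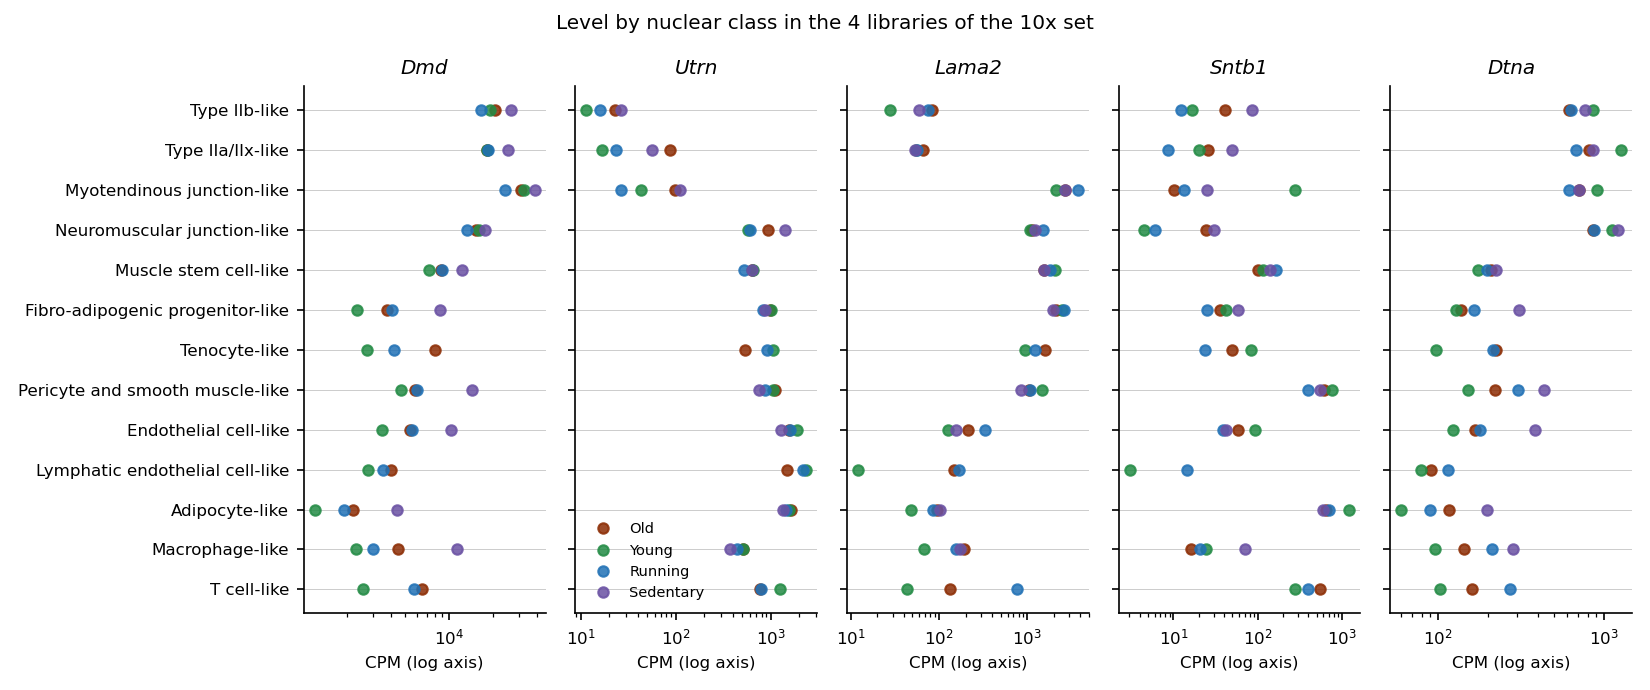
CPM of Dmd, Utrn, Lama2, Sntb1 and Dtna (log axis) in 13 nuclear classes of the 4 10x libraries, with 1 point per library. Dmd is highest in the 4 fast and junctional myonuclear classes, while Utrn is at 11.6 to 26.4 CPM in type IIb-like nuclei and at 571 to 1425 CPM in synaptic nuclei.

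The synaptic class was the exception among myonuclei. In synaptic nuclei of the 10x set, Utrn stood at 938 CPM (Old), 571 (Young), 599 (Running) and 1425 CPM (Sedentary), from 254 to 374 UMIs each, against 23.0, 11.6, 16.1 and 26.4 CPM in type IIb-like nuclei. The ratio was 40.8, 49.4, 37.2 and 53.9 within the 4 libraries. In the second set it was 25.9 (Young), 26.4 (Running) and 40.4 (Sedentary), and the Old library had too few synaptic nuclei. The lowest of the 7 ratios was 25.9, whereas 364 other genes of 200 kb to 1 Mb with at least 50 CPM had a median ratio of 0.987 and a 90th percentile of 2.82 in the 10x libraries.

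The share of nuclei with a Utrn UMI after thinning gave the same order. It was 0.526% to 1.93% of type IIb-like and 13.1% to 28.9% of synaptic nuclei in the 10x libraries, and 1.65% to 2.30% against 35.0% to 38.3% in the 3 second-set libraries. The Old and Sedentary synaptic levels were above the Young and Running ones in the 10x set, but in the second set the levels were 1275 (Young), 1194 (Running) and 1336 CPM (Sedentary).

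**Figure D3:**
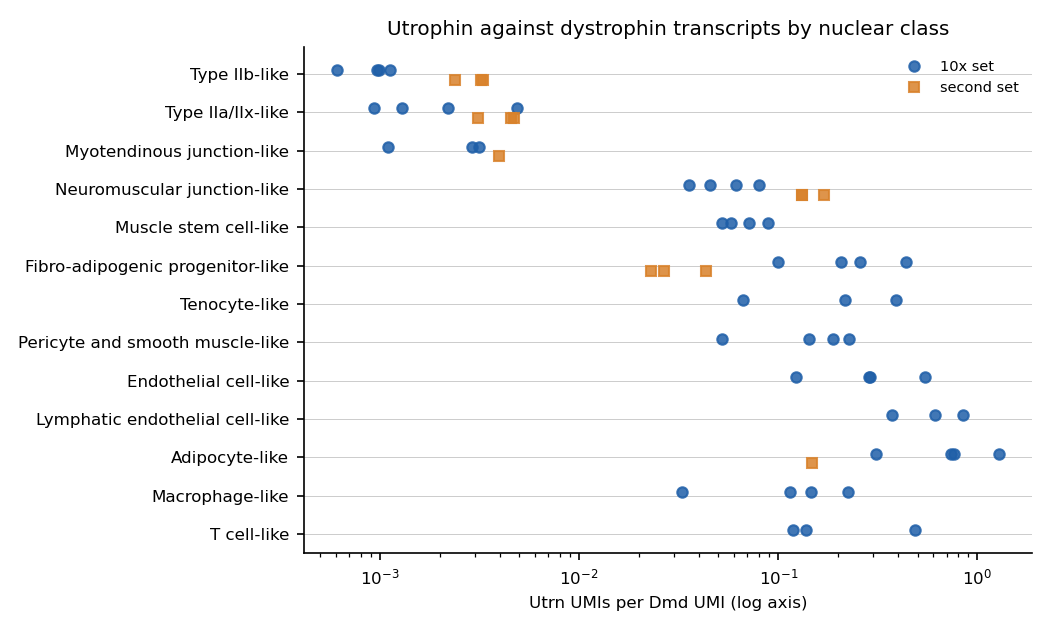
Utrn UMIs per Dmd UMI (log axis) in each nuclear class, with 1 point per library. The ratio is 0.000609 to 0.00112 in type IIb-like nuclei of the 10x libraries, 0.0356 to 0.0804 in synaptic nuclei and 0.308 to 1.28 in adipocyte-like nuclei.

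Laminin alpha 2 (Lama2), the basement membrane chain that dystroglycan binds, was highest in a mixed set of named classes. Its mean was 2816 CPM in myotendinous (SD 685, n = 4), 2307 in FAP-like (SD 305), 1741 in muscle stem cell-like (SD 251), 1252 in tenocyte-like (SD 322, n = 3), 1244 in synaptic (SD 191) and 1115 in pericyte-like nuclei (SD 266), each overlapping the next. All values of these 6 classes were above those of the other 7, from 312 CPM in T cell-like to 61.0 in type IIb-like and 57.7 in type IIa/IIx-like nuclei. Clusters that could not be named had a higher mean than any named class, 3707 CPM (SD 879, n = 4), with a range of 2530 to 4618 CPM. Among myonuclei Lama2 was thus low in the fiber body and high at both of its junctions.

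Within libraries, Lama2 in the myotendinous class was 32.2 to 75.5 times its type IIb-like level in the 10x set and 21.9 to 58.4 times in the second set. In the synaptic class it was 13.9 to 38.4 times in the 10x set and 21.5 to 29.5 times in the second set. For other genes of 200 kb to 1 Mb the median ratio was 0.974 at the myotendinous class, with a 90th percentile of 3.13. The myotendinous class exceeded that percentile in every library. These ratios are not exact folds, since the type IIb-like level they are set against was not above that of macrophage-like nuclei in the 10x libraries.

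At equal depth, Lama2 was found in no larger a share of type IIb-like nuclei than of macrophage-like nuclei, a class not known for it. After thinning, 3.70% (Old), 1.32% (Young), 3.69% (Running) and 2.91% (Sedentary) of the type IIb-like class held a Lama2 UMI in 10x libraries, against 6.91%, 2.64%, 6.58% and 4.86% of macrophage-like nuclei. Unthinned, the shares were 18.8%, 7.26%, 18.0% and 10.3% against 19.3%, 6.89%, 17.4% and 8.22%. The 95% Wilson intervals of the thinned shares were 3.16% to 4.34% against 5.11% to 9.27% in Old and 1.07% to 1.63% against 1.34% to 5.12% in Young, and they cover counting error only. The type IIb-like shares alone are therefore not read as expression, and the part of background RNA in them was not tested.

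Of the sarcoglycans, delta (Sgcd) was highest in myotendinous nuclei, with a mean of 3203 CPM (SD 290, n = 4) that overlapped no other class. Synaptic (1825), adipocyte-like (1655), type IIb-like (1612) and type IIa/IIx-like nuclei (1429) overlapped one another. The ratio of myotendinous to type IIb-like nuclei was 1.85 to 2.43 in the 10x set and 2.43 to 2.80 in the second set, higher in 8 of 8 libraries and, as for Dmd, below the 90th percentile of other genes over 1 Mb.

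Alpha-sarcoglycan (Sgca), the muscle-specific subunit, had a mean of 84.0 CPM in type IIa/IIx-like, 80.5 in synaptic, 79.4 in myotendinous and 70.1 in type IIb-like nuclei, and these overlapped. Every one of their values was above those of muscle stem cell-like nuclei (36.6), and adipocyte-like nuclei were lowest (11.2). Beta-sarcoglycan (Sgcb) varied least of the 9 members, from 79.4 CPM in synaptic to 27.1 in endothelial-like nuclei, a span of 2.93 times in which each class overlapped the next.

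Dystroglycan (Dag1), the laminin receptor of the complex, was highest in muscle stem cell-like nuclei. The Young library had 1323 CPM there and the Old, Running and Sedentary libraries 612, 695 and 589 CPM, above every value of the other 12 classes that 3 or more 10x libraries held. Schwann-like nuclei, in 2 libraries, had 715 and 751 CPM. Myotendinous (373) and type IIb-like nuclei (347) came next.

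Beta-1 syntrophin (Sntb1), an adaptor, had a mean of 799 CPM in adipocyte-like, 580 in pericyte-like and 409 in T cell-like nuclei. The values of these 3 classes lay above those of the other 10 with 1 exception. That value was the myotendinous class of the Young 10x library, at 279 CPM from 78 UMIs, held by 7.59% of its 79 nuclei, against 10.1 to 24.9 CPM in the other 3 libraries. Type IIb-like nuclei had a mean of 38.7 CPM. After thinning, 1.88% (Old), 0.781% (Young), 0.901% (Running) and 3.59% (Sedentary) of them held an Sntb1 UMI, against 0.518%, 0.330%, 0.987% and 1.39% of macrophage-like nuclei, with overlapping 95% Wilson intervals in all 4 libraries.

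Alpha-dystrobrevin (Dtna), which binds dystrophin and is needed at the synapse, had 1018 CPM in synaptic (SD 181, n = 4), 904 in type IIa/IIx-like, 734 in myotendinous and 719 in type IIb-like nuclei, all above the values of the other 9 classes. The synaptic and type IIa/IIx-like values overlapped. Within libraries the synaptic level was 1.31 to 1.58 times the type IIb-like level in the 10x set and 1.72 to 2.52 times in the second set, higher in 7 of 7 libraries. These ratios were below 2.82, the 90th percentile of other genes of 200 kb to 1 Mb in the 10x libraries. Utrn, Lama2 and Dtna were thus each higher in synaptic than in type IIb-like nuclei in every library with enough nuclei, and Dmd was lower.

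Likeness over classes was measured by Pearson's correlation of log2 CPM over 55 sums of 16 classes and the 10x libraries, among 4082 genes. These sums share libraries and depth, so the values are a description. Dmd was most like Rbm24 (0.94), Usp13 (0.94) and Slc8a3 (0.94), with gene bodies of 12.66, 120.5 and 135.3 kb. Utrn was most like Magi3 (0.86), Sntb2 (0.85), which encodes another syntrophin, and Plcb4 (0.85). Lama2 was most like Galnt17 (0.75), P4ha1 (0.68) and Abca8b (0.67).

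For aging, Old was compared with Young. Over all nuclei, edgeR's quasi-likelihood test with Benjamini-Hochberg adjustment called 0 of 9 members, where it called 0.0% of 20323 genes. At an unadjusted p under 0.05 it found 2 members, against 2.74% of all genes. DESeq2 called 0 members and found 1, where it called 0 of 20323 genes and found 1172. Dtna had a log2 difference of -1.02 (SE 0.40, adjusted p = 0.693) and Dag1 one of -0.94 (SE 0.40, adjusted p = 0.693). Dag1 was at 252 CPM in Old and 391 in Young in the 10x set and at 187 and 256 CPM in the second set, and Dtna at 465 and 651, and at 430 and 750 CPM. Both were lower in Old in both sets, but neither passed the test.

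Of the other members, Sgcb (-1.04), Sgca (-0.75), Sgcd (-0.72), Dmd (-0.65) and Lama2 (-0.15) had negative and Utrn (0.53) and Sntb1 (0.15) positive log2 differences, of which Lama2 turned positive when scaled by library totals (0.23) and Sntb1 negative with the length trend removed (-0.26). They came with SEs of 0.37 to 0.58 and adjusted p-values of 0.693 to 0.873 by edgeR. The median was -0.72 for the 9 members, against 0.19 for all genes and -0.89 for 16 long myofiber genes outside the complex, of which 0 were higher. Scaled by library totals, the median of all genes was 0.25 in the 10x and 0.88 in the second set, and that of the members -0.09 and -0.45. On that scale Dmd was -0.02 in the 10x and -0.50 in the second set, Sgcd -0.63 and 0.01, and Sgca -0.09 and -0.78. Sgcb was -0.38 and -1.23, Lama2 0.16 and 0.32, Utrn 0.30 and 1.57, and Sntb1 -0.02 and 1.18. The fit used TMM factors, which were 1.479 for the Old library of the second set and 0.878 to 1.021 for the others. Lower in both sets were 5 members and 10.5% of all genes, and higher in both sets were 2 members and 51.4% of all genes. These within-set values add 0.5 to each count, which raises genes with few UMIs where the Old sum is smaller, as in the second set. The same holds for the myofiber-like and type IIb-like shares below.

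The cell types sampled differed between these libraries. FAP-like nuclei were 28.9% of the Old, 18.4% of the Young, 19.3% of the Running and 7.74% of the Sedentary 10x library, and their 8 markers, all detected, summed to 2970, 2135, 1641 and 600.5 CPM. FAP-like nuclei held 48.1%, 49.9%, 42.5% and 18.0% of the Utrn UMIs and 69.0%, 71.9%, 59.1% and 36.9% of the Lama2 UMIs of these libraries. In sums over all nuclei, fewer nuclei of a type and less RNA per nucleus cannot be told apart, so the comparison was repeated within myofiber-like nuclei. This group holds both junction classes and all fiber types, so its own make-up still differs. In the 10x set its 5545 Old nuclei included 153 myotendinous and 96 synaptic ones, and its 7483 Young nuclei 79 and 145. Myotendinous nuclei held 7.24% (Old) and 2.55% (Young) of the Lama2 UMIs of their library, of 15.9% and 8.01% in the whole group. Type IIb-like nuclei of the 10x set numbered 3996 (Old) and 6657 (Young), type IIa/IIx-like ones 1130 and 597, and slow-like ones 147 and 1. In the second set the whole group held 711 Old and 4044 Young nuclei. The part of this make-up in the differences below was not tested.

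Summed over myofiber-like nuclei, 0 of 9 members were called by edgeR, with 0.0% of 18578 genes called. Only Dtna had an unadjusted p under 0.05 (log2 difference -0.77, SE 0.30, adjusted p = 0.979), against 3.44% of all genes. DESeq2 called 0 members and found 2, where it called 3 of 18578 genes and found 825. Utrn (0.69, SE 0.42), Lama2 (0.58, SE 0.35) and Sntb1 (0.47, SE 0.46) had positive and the other 6 negative differences. The median of the members was -0.40, against 0.02 for all genes and -0.49 for the long myofiber genes. Higher in both sets were 3 members and 44.6% of all genes, and lower in both were 4 members and 12.6%.

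In type IIb-like nuclei edgeR called 0 of 9 members, where 36 of 15200 genes (0.237%) were called. At an unadjusted p under 0.05 it found 4 members, against 7.09% of all genes. DESeq2 called 0 members and found 3, where it called 9 of 15200 genes and found 672. The 4 members by edgeR were Lama2 (log2 difference 1.12, SE 0.37, adjusted p = 0.271), Dtna (-0.73, SE 0.29, adjusted p = 0.462), Sgcd (-0.60, SE 0.28, adjusted p = 0.650) and Dag1 (-0.66, SE 0.32, adjusted p = 0.687). The Old library of the second set contributed 57 nuclei, with 13 Lama2, 5 Utrn and 1 Sgca UMIs. Higher in both sets were 4 members and 46.4% of all genes, and lower in both were 4 members and 10.8%.

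Lama2 was at 82.6 CPM in Old and 28.1 in Young type IIb-like sums from 10x libraries, and at 233 and 94.98 CPM in the second set. Old was higher in both sets, but macrophage-like nuclei of the 10x set moved the same way, from 67.7 CPM in Young to 192 in Old, and the thinned share of nuclei with a Lama2 UMI was no larger in the type IIb-like than in the macrophage-like class in either library. The log2 difference was 0.75 without the Young 10x library and at most 1.39 without any other library. The part of background RNA in this difference was not tested.

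Length controls were given by other genes of the same length class, as medians of log2 differences within a set. In type IIb-like nuclei, genes of 200 kb to 1 Mb had a median of 0.10 in the 10x and 0.61 in the second set for Old against Young. Lama2 (1.56 and 1.34) and Utrn (0.99 and 0.97) were above these medians and Dtna (-0.47 and -0.35) was below them in both sets. Sntb1 was above in 1 set only (1.33 and 0.04). Against medians of 0.02 and 0.88 for genes over 1 Mb, Dmd (0.11 and 0.12) and Sgcd (-0.69 and 0.20) were each below in the second set, and Sgcd also in the 10x set. These differences add 0.5 to each count, which raises genes with few UMIs where the Old sum is far smaller. In the second set the type IIb-like sums held 55752 UMIs (Old) and 547472 UMIs (Young). The second-set medians for Old against Young are therefore no strict length control.

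**Figure D4:**
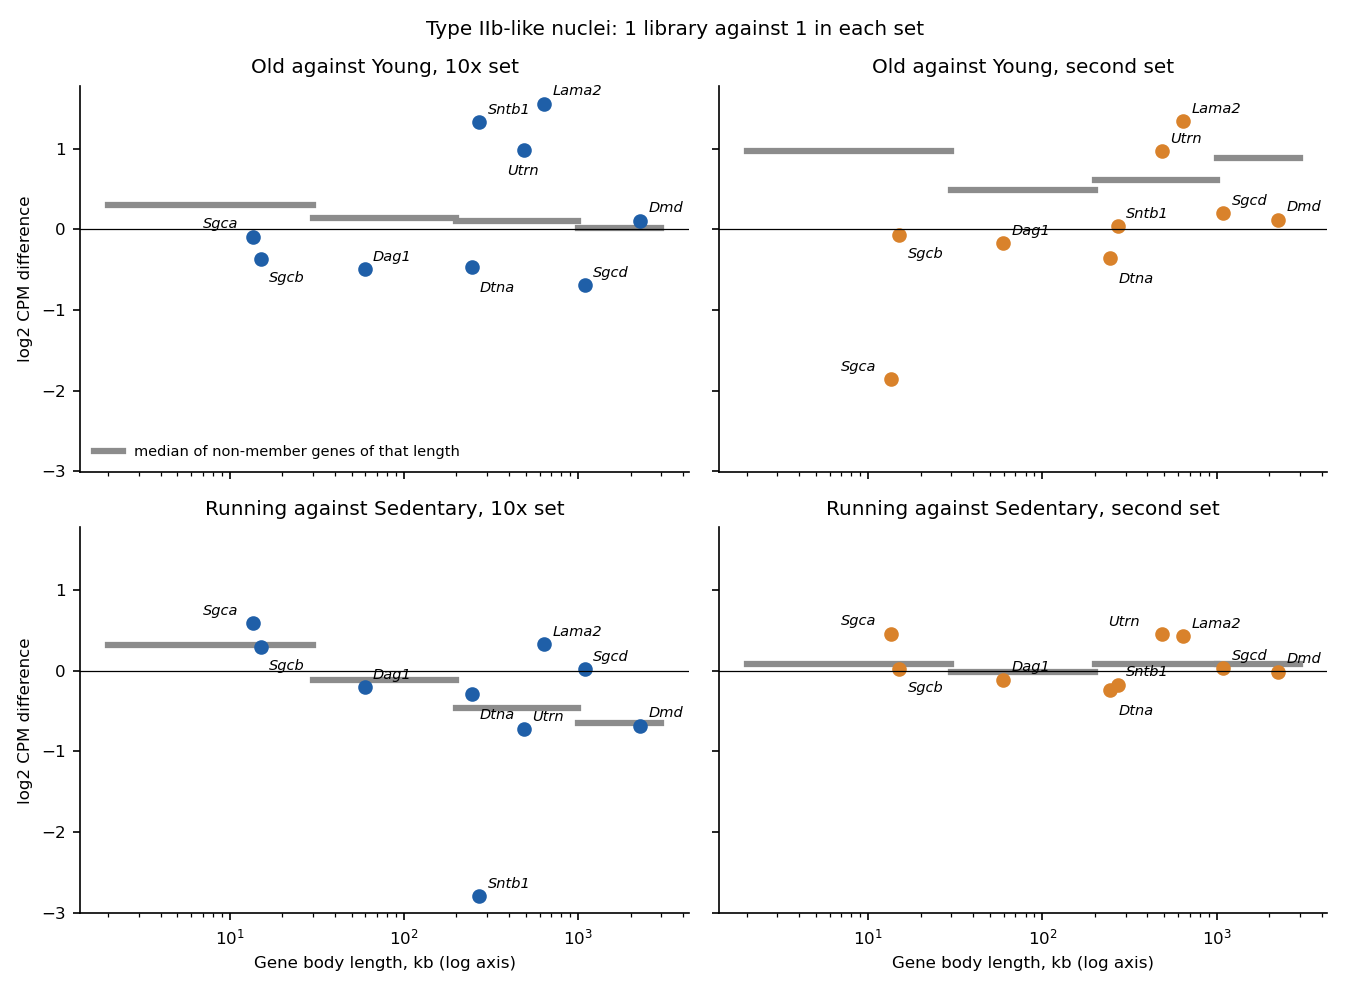
Log2 CPM difference of the 9 members in type IIb-like nuclei against gene body length in kb (log axis), for Old against Young and Running against Sedentary in each library set; gray bars are medians of the other genes in 4 length classes. For Old against Young, Lama2 (1.56 and 1.34) and Utrn (0.99 and 0.97) stand above the bars of their length in both sets, and the Old points of the second set rest on few UMIs (1 for Sgca). The second-set bars for Old against Young can be raised by 0.5 added to each count.

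For exercise, Running was compared with Sedentary. Over all nuclei edgeR called 0 of 9 members, with 0.0% of 20323 genes called. At an unadjusted p under 0.05 it found 0 members, against 0.482% of all genes. DESeq2 called 0 members and found 0, where it called 0 of 20323 genes and found 392. The log2 differences ran from -0.68 for Sntb1 (SE 0.39) to 0.60 for Lama2 (SE 0.45), all with an adjusted p of 1.0. Their median was 0.03, against -0.04 for all genes and 0.05 for the long myofiber genes. Higher in both sets were 4 members and 25.9% of all genes, and lower in both were 4 members and 25.9%.

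Lama2 was at 593 CPM in Running and 281 in Sedentary in the 10x set and at 367 and 310 CPM in the second set, higher in Running in both. FAP-like markers were also higher in Running in the 10x set (1641 against 600.5 CPM) but not in the second set (362.4 against 393.5), and their part in the Lama2 difference was not tested. Dmd was at 13749 and 21368 CPM in the 10x set, a difference of -0.64 that was not seen in the second set (-0.01). The median of other genes over 1 Mb was -1.04 and 0.10 in these sets.

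In myofiber-like nuclei, with 0.0% of 18578 genes called, edgeR again called 0 of 9 members, and at an unadjusted p under 0.05 it found 1, Sntb1 (log2 difference -1.34, SE 0.48, adjusted p = 1.0), against 1.37% of all genes. DESeq2 called 0 and found 1, where it called 0 of 18578 genes and found 327. Higher in both sets were 4 members and 27.7% of all genes, and lower in both were 4 members and 24.7%. In type IIb-like nuclei 0 of 9 members were called, where 3 of 15200 genes (0.0197%) were called, and Sntb1 was again the only one with an unadjusted p under 0.05 (-1.69, SE 0.43, adjusted p = 0.239), against 3.27% of all genes. DESeq2 called 0 and found 1, where it called 0 of 15200 genes and found 209. Members higher in both sets numbered 4, beside 30.8% of all genes, and those lower in both 4, beside 22.4%.

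Sntb1 in type IIb-like nuclei stood in the 10x set at 41.4 CPM (Old), 16.4 (Young), 12.2 (Running) and 84.5 CPM (Sedentary). In the second set these 4 values were 215, 217, 131 and 148 CPM. The Sedentary 10x library was the highest of its set, and the 2 libraries of the second set differed by only -0.17 on the log2 scale, against -2.79 in the 10x set. Without the Sedentary 10x library the difference fitted by edgeR was -0.34, and without the Sedentary library of the second set it was -2.68. The median of other genes of 200 kb to 1 Mb was -0.46 in the 10x and 0.08 in the second set. Within type IIb-like nuclei the direction was thus shared by both sets, while the size rested on the Sedentary 10x library. Sntb1 in macrophage-like nuclei of the 10x set ran from 16.3 to 70.8 CPM and was also highest in the Sedentary library. The part of background RNA in the type IIb-like difference was not tested. In type IIa/IIx-like nuclei the sets differed in sign, with -2.52 in the 10x and 0.41 in the second set.

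Dtna was lower in Running in both sets of type IIb-like nuclei (-0.29 and -0.24), above the median of its length class in the 10x set (-0.46) and below it in the second (0.08). Dmd was -0.68 and -0.01, near the medians of -0.65 and 0.08 for other genes over 1 Mb. Utrn (-0.72 and 0.45) changed sign between sets. Its type IIb-like level was 16.1 CPM in Running and 26.4 in Sedentary in the 10x set and 45.2 and 33.0 CPM in the second set. In type IIa/IIx-like nuclei Utrn was lower in Running in both sets (-1.23 and -0.54), from only 33 (Running) and 30 UMIs (Sedentary) in the second set.

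The rest of the pathway was taken as a list of 48 genes. Over all nuclei, edgeR called 0 of 48 for Old against Young and 0 of 48 for Running against Sedentary. At an unadjusted p under 0.05 it found 1 gene in each, beside 2.74% and 0.482% of all genes. DESeq2 called 0 and found 3 and 4, where it found 1172 and 392 of 20323 genes. For Old against Young, genes with small p-values were Ank3 (log2 difference -1.02), an ankyrin that anchors membrane proteins, and Dysf (-0.80), dysferlin of membrane repair, both with an adjusted p of 0.693. For Running against Sedentary they were those of Lamb1 (1.15) and Nid2 (1.47), a laminin chain and a nidogen of the basement membrane, and Dolk (1.42), which makes a sugar carrier, all with an adjusted p of 1.0.

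By role, the 12 matrix partners had a median log2 difference of 0.25 for Old against Young and of 0.54 for Running against Sedentary, in which 12 of 12 were above 0, beside 46.5% of all genes, and 10 were higher in both sets, beside 25.9%. The 11 other subunits and associates had medians of 0.20 and 0.11, the 8 genes of the integrin route and cytolinkers -0.61 and -0.08, and the 17 dystroglycan glycosylation genes -0.32 and 0.23. The medians of all genes were 0.19 and -0.04. FAPs are known as makers of matrix, the shares of FAP-like nuclei are given above, and their part in these medians was not tested. Within myofiber-like nuclei edgeR called 0 of the 12 matrix partners in either comparison, where it called 0.0% of 18578 genes. For Old against Young 3 of them had an unadjusted p under 0.05, beside 3.44% of all genes. Their median was 0.73, against 0.02 for all genes. For Running against Sedentary 0 did, beside 1.37% of all genes (median 0.35, against -0.02). In type IIb-like nuclei 0 were again called, where 36 (Old against Young) and 3 (Running against Sedentary) of 15200 genes were. For Old against Young 4 had an unadjusted p under 0.05, beside 7.09% of all genes, with a median of 0.93 (all genes -0.05). The Old library of the second set gave only 57 nuclei to this comparison. For Running against Sedentary 0 did, beside 3.27% of all genes, with a median of 0.35 (all genes 0.03).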

How the data were processed

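The files hold the filtered matrices that the authors deposited for each library, with raw counts of UMIs for every gene in every nucleus. Per the labels and methods, 10x reads were counted with Cell Ranger 6.1.2 and the others with PISA on mm10 (GRCm38), and Seurat 4.1.1 was used downstream. Whether intronic reads were counted is not given in the sources used here. The members and gene lists were chosen with earlier results of these data known.

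The filters of the methods were applied (over 200 genes, below 6000 genes, below 6% of counts from mitochondria), which kept 64803 of 65280 nuclei. Removed were 12 mitochondrial and 84 ribosomal protein genes. Doublets were kept. Median depth was 888 to 2985 UMIs per nucleus by library. Of 21207 symbols, 20793 (98.0%) had a GENCODE vM21 record. Nuclei of each set were clustered (leidenalg 0.10.2, 2000 variable genes, 30 components, 20 neighbors, resolution 1) without members and pathway genes (the long myofiber genes used as controls were not left out), and named by marker lists with limits set after the clusters had been seen. Shares were compared after thinning to 500 UMIs, which left out 15 to 49 nuclei of each 10x library.

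Since nuclei are no replicates, sums of counts by library and class were tested with edgeR (version 4.0.16, R 4.3.3; quasi-likelihood, two-sided, TMM, filterByExpr, adjusted p under 0.05). The fit held all 8 libraries with group and library set as terms (3 residual degrees of freedom), and DESeq2 1.42.0 was an alternative. The scripts were tested on simulated data. With 2 libraries against 2, exact permutation gives no p below 0.333. All 9 members are named, and of the other pathway genes each one called and the 3 with the smallest p in each comparison, except that one gene is not reported here by name.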

Additional observations from a re-analysis of the deposited data

How the results depend on the processing

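Across 144 alternative settings of the counts of called members and pathway genes, 138 gave the same count within the limits set and 6 gave a called gene. Without a filter on low counts 1 member, Sntb1, was called for Running against Sedentary in type IIb-like nuclei, where 45 of 21084 genes were called. When each library was left out in turn, the Sntb1 log2 difference in that comparison ran from -2.68 to -0.34. The other settings with a called gene each left 1 library in a group, so their calls are not read as results. Library set, which ties 1 library of each group to those of the other groups by droplet system, was a term of the fit, and without it 0 members and 0 other pathway genes were called in each comparison tested. The labels number no replicates, so no other pairing was tried. Of the members' own log2 differences, none of which was called, 39 alternative values had the opposite sign (values that round to 0.00 were taken as having no sign), and the cause was not tested.

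For Old against Young over all nuclei, Lama2 (-0.15) was 0.23 on library totals, 0.04 after thinning and from -0.64 to 0.17 with 1 library left out. Sntb1 (0.15) was -0.26 with the length trend removed and from -0.19 to 0.48 with 1 library left out. For Old against Young in type IIb-like nuclei, Dmd (-0.20) was 0.12 on library totals. Sntb1 (0.38) was -0.37 without the set term and from -0.41 to 1.11 with 1 library left out. Utrn (0.54) was from -0.07 to 0.88 with 1 library left out. For Running against Sedentary over all nuclei, Dag1 (-0.04) was 0.04 in only the 4 libraries compared, 0.08 with the length trend removed and from -0.34 to 0.33 with 1 library left out. Utrn (0.06) was -0.05 after thinning and from -0.07 to 0.18 with 1 library left out. Sgcd (0.03) was -0.11 after thinning, -0.05 in named nuclei and from -0.04 to 0.09 with 1 library left out. Sgca (0.36) was from -0.03 to 0.86 with 1 library left out. Sgcb (0.22) was from -0.32 to 1.03 with 1 library left out. For Running against Sedentary in myofiber-like nuclei, Dag1 (-0.09) was from -0.34 to 0.16 with 1 library left out. Sgcd (0.05) was from -0.02 to 0.12 with 1 library left out. Utrn (-0.68) was from -1.29 to 0.13 with 1 library left out. Sgcb (0.20) was from -0.28 to 0.86 with 1 library left out. For Running against Sedentary in type IIb-like nuclei, Sgcd (-0.02) was 0.02 on library totals, 0.14 with the length trend removed and from -0.10 to 0.07 with 1 library left out. Utrn (-0.26) was 0.01 with the length trend removed and from -0.85 to 0.51 with 1 library left out. Sgcb (0.10) was -0.02 with the length trend removed, -0.05 after thinning and from -0.19 to 0.45 with 1 library left out.

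Few UMIs in the 57 type IIb-like nuclei of the Old library of the second set limit what can be seen for Sgca, Sgcb, Utrn, Sntb1 and Lama2 there.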
